A study of Vernicia fordii with 6 samples.

Results

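Cyclins and the other genes of cell division were examined in male and female flower buds of the tung tree, Vernicia fordii, a woody oil crop that bears unisexual flowers. The set was taken from the assembled transcripts (unigenes) by the wording of their best SwissProt match: every description with cyclin, cell division, anaphase-promoting, DNA replication licensing, proliferating cell nuclear, retinoblastoma-related, transcription factor E2F, aurora or mitotic was included. This wording selected 146 of 56065 unigenes, which matched 107 different SwissProt entries. A total of 63 of them shared an entry with another, and whether these are gene copies or pieces of one transcript cannot be told apart. No measured value entered the choice, and each name is that of a similar protein, most often from Arabidopsis thaliana or rice.

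The study compared 3 male flower samples with 3 female flower samples, all of them floral buds at stage 7 from 4-year-old trees of 1 cultivar, with no treatment in either sex. Buds of both sexes were picked from the same plant and each sample pooled many flowers. A library thus averages over stamen primordia, petals, the gynoecium in female flowers and any other tissue of the bud. In such pools, fewer dividing cells and less RNA per cell cannot be told apart.

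In plants, as in other eukaryotes, the division cycle is driven by cyclin-dependent kinases (CDKs), which act only when bound to a cyclin. D-type cyclins respond to growth signals and start the cycle: with a CDK they inactivate the retinoblastoma-related protein (RBR) and so free E2F transcription factors, which turn on genes of DNA replication. A-type cyclins act mainly in S phase and G2, B-type cyclins and B-type CDKs at the entry into mitosis, and the anaphase-promoting complex (APC/C) ends mitosis by marking cyclins for destruction. Inhibitors of the KRP and SIAMESE-related (SMR) families hold CDKs inactive, often when cells leave the cycle to differentiate or to enlarge by endoreduplication. Flower buds grow by such divisions until their cells turn to enlargement, meiosis or other kinds of differentiation.

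The libraries differed in depth and in make-up. Reads per library ran from 11467832 to 40385019, and the 5 most abundant unigenes took between 1.12% of the reads (female replicate 2) and 54.9% (female replicate 3). Female replicate 3 and male replicate 1 had the largest share of their sex in these 5 unigenes, with 54.9% and 36.9% of their reads. Male replicates 2 and 3 had 4.46% and 21.1%, and female replicate 1 had 3.9%. The cell division unigenes held 0.248% to 0.345% of the reads in the male libraries, 0.5% and 0.482% in female replicates 1 and 2 and 0.0943% in female replicate 3. Levels are given as RPKM (reads per kilobase of transcript relative to the library total) scaled by TMM, a method that corrects each library total for such dominant transcripts. Summed over the marker unigenes of late anther and pollen, the levels were 1520 to 2000 in the male and 168 to 326 in the female libraries, and all 31 of these unigenes had reads, with 7 of the 24 tested called higher in male flowers. Of the 3 unigenes that matched the Major pollen allergen Ole e 6, contig_36801 and contig_37245 were at 0 in each female library. The list was mixed, as 16 of the 24 tested had the higher fitted level in male and 8 in female flowers. A match to Major pollen allergen Bet v 1-F/I (contig_22080) was at 0 in each male library and at 3.07, 5.09 and 0.94 in the female libraries. Summed over the marker unigenes of green tissue, the levels were 2350 to 3760 in the male libraries, 994 and 1610 in female replicates 1 and 2 and 8390 in female replicate 3. The part of these differences in the results was not tested.

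No cell division unigene passed the test between the sexes. To be called, a unigene needed an adjusted p under 0.05 (Benjamini-Hochberg, over all tested unigenes) in the edgeR quasi-likelihood test and a change of at least 2-fold, and 132 of the 146 had enough reads to be tested. Of these 132, 0 were called, where 1.7% of all 29327 tested unigenes were: 1.56% higher in male and 0.143% higher in female flowers. At an unadjusted p under 0.05 the count was 15, with 4 higher in male and 11 higher in female flowers, against 5.75% and 7.42% of all tested unigenes. The levels of the sexes did not overlap for 14 unigenes higher in male and 12 higher in female flowers, where all tested unigenes gave 10.4% and 9.06%. The non-overlap counts and the count at an unadjusted p higher in female flowers lay near the background, while the counts called and at an unadjusted p higher in male flowers lay below it. The 14 untested unigenes had 16 to 117 reads over the 6 libraries, namely 1 of 7 A-type cyclins, 1 of 11 D-type cyclins, 3 of 18 cyclins of other types, 1 of 24 CDKs, 1 of 8 CDK inhibitors, 1 of 10 in the licensing and PCNA class, 2 of 18 in the APC/C class, 1 of 5 plastid division unigenes and 3 of 18 unigenes with other tasks.

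The direction was uneven between classes. Of the 132 tested unigenes, 85 had the higher fitted level in female and 47 in male flowers, and the median log2 difference (male minus female) was -0.25, beside -0.09 over all tested unigenes. With library totals in place of TMM the median of all unigenes moved to -0.41 and that of the cell division unigenes to -0.70. Class medians ran from -0.97 in the B-type cyclins and -0.86 in the licensing factors and PCNA to 0.62 in the CDK inhibitors and 0.63 in the plastid division proteins. Without female replicate 3, where 2.62% of all tested unigenes were called, the test called 4 cell division unigenes, and without male replicate 1, where 2% were, it called 2. DESeq2, a second count test that called 4.13% of all unigenes, called 3. These 9 calls concern 8 different unigenes, named below with their values.

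**Figure D1:**
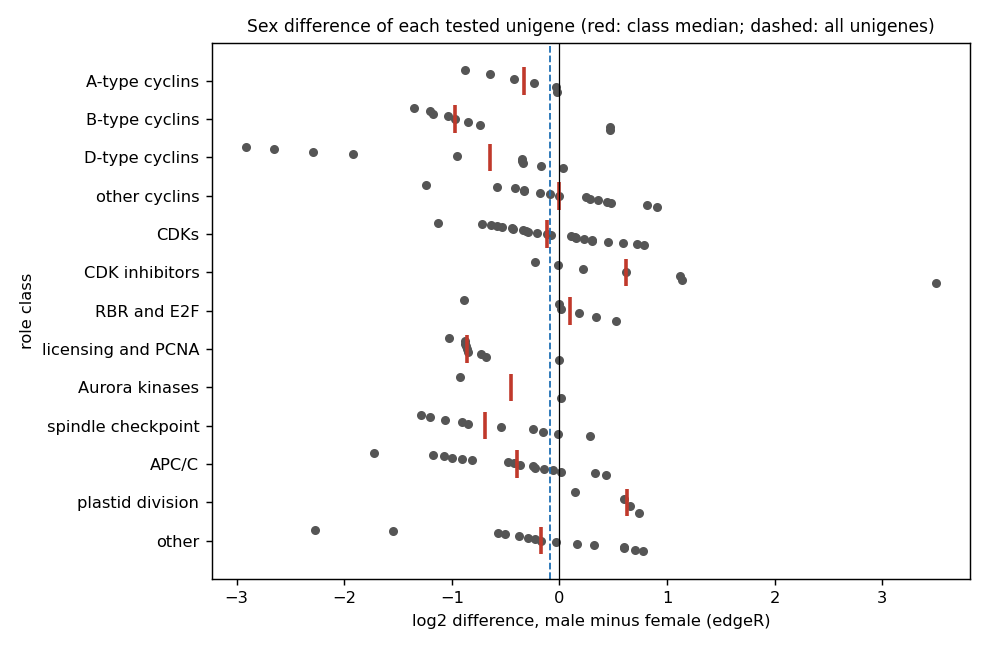
Each grey point is the log2 difference (male minus female, horizontal axis) of one tested unigene of the class named on the vertical axis, with 132 points in all, a red bar at the class median and a dashed line at -0.09, the median of all tested unigenes. The red bars of the B-type cyclins (-0.97) and of the licensing factors and PCNA (-0.86) lie to the left, and those of the CDK inhibitors (0.62) and of plastid division (0.63) to the right.

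Among the D-type cyclins, 9 of 10 tested unigenes had the higher fitted level in female flowers, and 4 of the 5 most negative differences of the whole set were found here. Cyclin-D1-1 belongs to the cyclins that act at the start of the cycle, and 3 unigenes matched it. With the replicates in the order 1, 2 and 3, here and below, the level of contig_27652 was 2.06, 0.765 and 0.355 in male flowers and 9.16, 8.59 and 1.44 in female flowers. Female replicates 1 and 2 were the high libraries, while female replicate 3 lay below male replicate 1, so that the sexes overlapped. The means were 1.06 ± 0.891 and 6.39 ± 4.30 (SD, n = 3 each), and the log2 difference was -2.65 ± 0.83 (SE, edgeR adjusted p = 0.245). DESeq2 called this unigene at an adjusted p of 0.0469, and over all alternatives the adjusted p ran from 0.0469 to 1.

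The second match to Cyclin-D1-1, contig_22738, is named in the study's own supplementary tables, and so was not an independent choice. Its level was 4.07, 1.10 and 1.02 in the male and 14.9, 10.9 and 2.95 in the female libraries. The same libraries were high as for contig_27652, and the log2 difference was -2.29 ± 0.77 (SE, edgeR adjusted p = 0.274). The third, contig_1506, had 15.9, 1.6 and 2.01 in male and 11.3, 11.2 and 15.1 in female flowers. Here male replicate 1 reached the level of the female libraries and the other male libraries were low. Without male replicate 1 it was one of the 2 unigenes called, with a log2 difference of -2.67 ± 0.40 (SE, edgeR adjusted p = 0.0232), against -0.95 ± 0.83 (adjusted p = 0.660) with all 6 libraries.

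The match to Cyclin-D6-1, a cyclin known in Arabidopsis for formative divisions of the root, was scarce. contig_41441 had a level of 0.754, 0.189 and 0.1 in male and 2.52, 4.38 and 0.339 in female flowers, from 14, 7 and 2 reads and 228, 522 and 2 reads. Its log2 difference of -2.91 ± 0.98 (SE, edgeR adjusted p = 0.276) was the most negative of the set, and again female replicates 1 and 2 alone were high. Cyclin-D5-1 (contig_24754) had 1.92, 2.93 and 1.69 in male and 9.13, 13.3 and 1.81 in female flowers, and its log2 difference was -1.92 ± 0.67 (SE, edgeR adjusted p = 0.288). Without female replicate 3 it was called, at -2.20 ± 0.40 (edgeR adjusted p = 0.0436).

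The D3-type cyclins, which in Arabidopsis keep cells of young lateral organs dividing, showed no such gap. Cyclin-D3-2 (contig_790) had the highest level of the class, with 29.1, 30.5 and 25.9 in male and 33.0, 33.0 and 42.9 in female flowers. All female libraries lay above all male libraries, but the log2 difference was only -0.35 ± 0.27 (SE, edgeR adjusted p = 0.622). The remaining D-type unigenes, which matched D3-1, D4-1 and D5-2, differed by -0.35 to 0.03 on the log2 scale. Of these, the Cyclin-D3-1 unigene contig_10868 had 7.78, 20.1 and 15.0 in male and 23.3, 23.1 and 7.42 in female flowers, so that the lowest library of each sex was as low as that of the other.

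**Figure D2:**
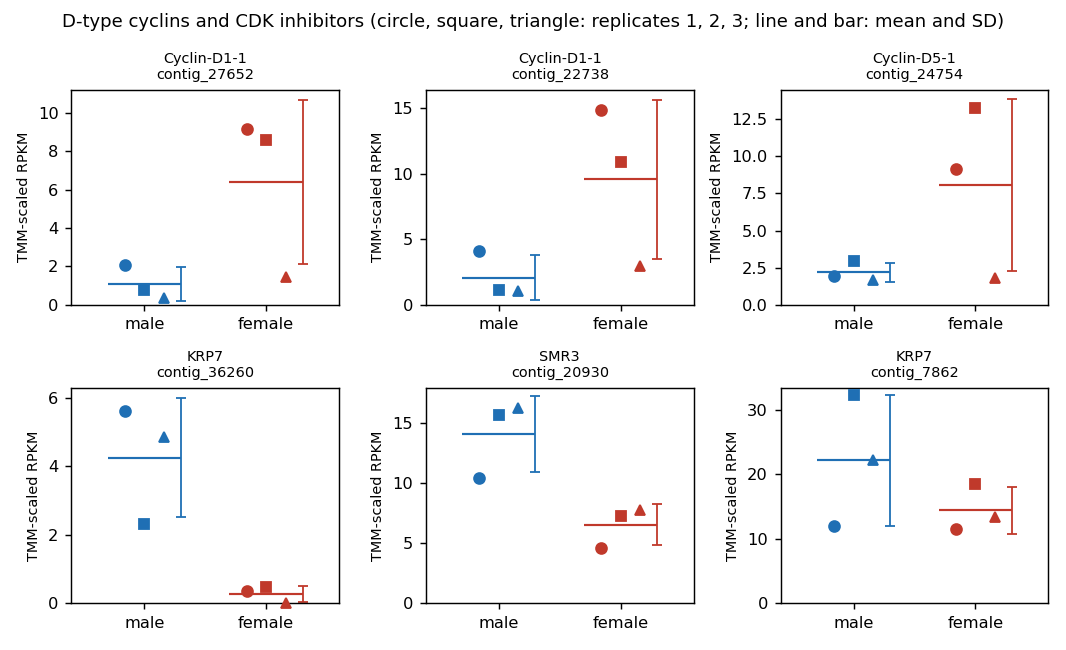
TMM-scaled RPKM (vertical axis, from 0) of 3 D-type cyclin and 3 CDK inhibitor unigenes in male (blue) and female (red) flowers, with circle, square and triangle for replicates 1, 2 and 3 and a line and bar for the mean and SD of 3 libraries. For the 3 cyclins the triangle of female replicate 3 lies near the male points, at 1.44, 2.95 and 1.81, and for the KRP7 unigene contig_36260 all male points lie above 2 and all female points below 0.5.

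The CDK inhibitors leaned the other way, with 5 of 7 tested unigenes higher in male flowers. The largest male-biased difference of the whole set was that of contig_36260, a unigene of 418 bp that matched the KRP inhibitor KRP7, which binds CDK and cyclin and keeps the kinase inactive. It had 27, 22 and 25 reads in the male libraries and 8, 14 and 0 reads in the female libraries, of which female replicates 1 and 2 were the deepest of all. Its level was 5.63, 2.30 and 4.85 in male and 0.343, 0.455 and 0 in female flowers, with no overlap. The log2 difference was 3.50 ± 0.71 (SE), with an edgeR adjusted p of 0.0644 and a range from 0.00058 (DESeq2) to 0.566 over the alternatives. It was called by DESeq2 and, in edgeR, without female replicate 3 (adjusted p = 0.0478). The longer KRP7 unigene of 1694 bp, contig_7862, did not share this contrast: its level was 11.9, 32.3 and 22.3 in male and 11.5, 18.5 and 13.3 in female flowers, with a log2 difference of 0.62 ± 0.41 (SE, edgeR adjusted p = 0.559).

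SMR3 is a small inhibitor of the SIAMESE family, whose members promote endoreduplication in Arabidopsis, and 3 tested unigenes matched it. For contig_20930 the level was 10.4, 15.6 and 16.2 in male and 4.59, 7.23 and 7.72 in female flowers. Every male library lay above every female one, with means of 14.1 ± 3.21 and 6.51 ± 1.69 (SD, n = 3 each) and a log2 difference of 1.12 ± 0.36 (SE, edgeR adjusted p = 0.251). contig_6635 was scarcer, with 2.05, 6.41 and 3.95 in male and 2.11, 2.42 and 0.861 in female flowers, and its log2 difference was 1.14 ± 0.56 (SE, edgeR adjusted p = 0.437). The third, contig_527, varied far more within each sex than between them: it had 3.83, 25.4 and 50.5 in male and 8.58, 5.49 and 68.4 in female flowers, and a log2 difference of -0.01 ± 1.10 (SE, edgeR adjusted p = 0.999). The low libraries of this unigene were male replicate 1 and female replicates 1 and 2. KRP4 (contig_11889) had the same low libraries, at 13.9, 9.41 and 11.6, with 15.4 and 21.9 in the other male libraries and 23.5 in female replicate 3.

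That division of the libraries, opposite in sign, was the main pattern among the genes of DNA replication and mitosis. Male replicate 1 was the highest of the male libraries and female replicate 3 the lowest of the female libraries for 66 of the 132 tested unigenes (50.0%), where all tested unigenes gave 24.9%. On the log2(RPKM + 0.5) scale, male replicate 1 exceeded the mean of the other male libraries by a median of 0.38, against 0.00 over all unigenes, and female replicate 3 differed from the mean of the other female libraries by a median of -0.58, against -0.22. In RPKM as deposited, without TMM, the pattern was found in 38.6% of the cell division unigenes and in 17.4% of all. The reverse pattern, with male replicate 1 lowest and female replicate 3 highest, was found in 14 unigenes (10.6%, against 17.4% of all). Members of one class share the libraries, so that these counts describe 6 libraries and not independent repeats.

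**Figure D3:**
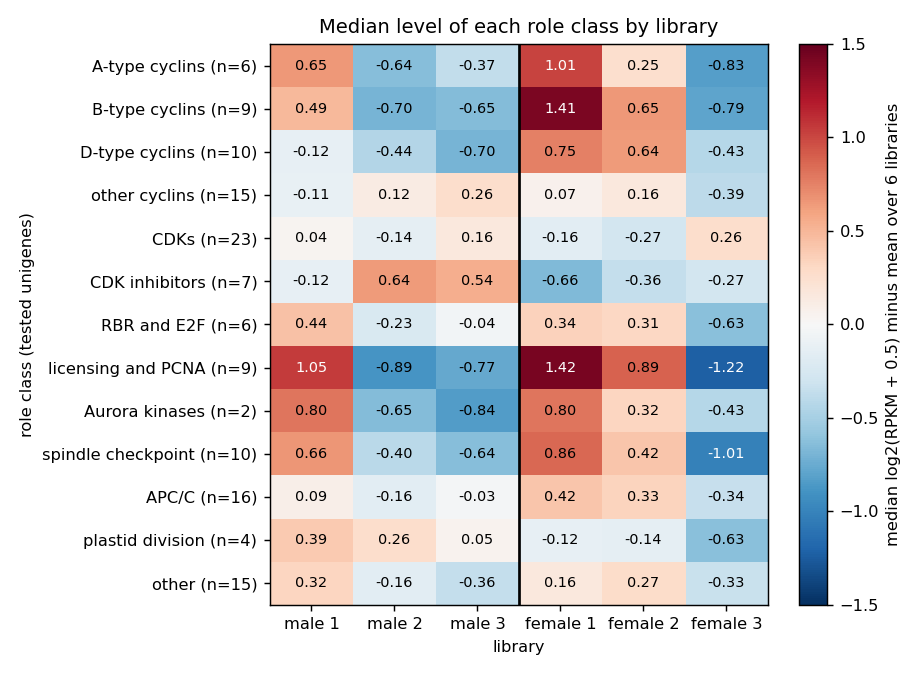
Each cell is the median over the tested unigenes of a class (rows, with their number) of the log2(RPKM + 0.5) level in one library (columns, 3 male and 3 female) minus the mean of that unigene over the 6 libraries, red for high and blue for low. In the licensing and PCNA class male replicate 1 (1.05) and female replicates 1 and 2 (1.42 and 0.89) are high, and male replicates 2 and 3 (-0.89 and -0.77) and female replicate 3 (-1.22) are low, and the same signs are found in the A-type, B-type, Aurora, spindle checkpoint, RBR and E2F, APC/C and other classes.

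The licensing factors are the MCM proteins, which are loaded on replication origins and open the DNA in S phase. In 5 of 6 tested MCM unigenes the pattern was found, with median log2 shifts of 2.19 for male replicate 1 and -2.36 for female replicate 3. All 6 tested MCM unigenes had a higher fitted level in female flowers, by TMM and by library totals, with log2 differences of -1.03 to -0.73 and a lowest edgeR adjusted p of 0.308. The MCM3 unigene contig_18680 had 9.90, 1.56 and 2.06 in male and 12.8, 9.92 and 1.29 in female flowers. The mcm4 unigene contig_7223 had 11.1, 1.93 and 1.80 in male and 14.8, 9.91 and 1.79 in female flowers. Male replicate 1 thus lay with female replicates 1 and 2, and female replicate 3 with male replicates 2 and 3, which left log2 differences of -0.85 ± 0.90 and -0.86 ± 0.89 (SE) between the sexes. A single MCM unigene kept the sexes apart: contig_6930, a match to mcm5, had 14.8, 7.99 and 11.3 in male and 23.9, 18.6 and 20.3 in female flowers, and its log2 difference was -0.88 ± 0.32 (SE, edgeR adjusted p = 0.308). Another match to mcm5, contig_31555, overlapped between the sexes, with 12.7, 2.78 and 0.589 in male and 16.5, 11.8 and 2.99 in female flowers. Its log2 difference was -1.03 ± 0.98 (SE, edgeR adjusted p = 0.688).

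PCNA, the sliding clamp of the replicative polymerases, gave the clearest case of a spread without a sex difference. The level of contig_18479 was 35.8, 8.25 and 7.35 in male and 27.8, 19.0 and 3.69 in female flowers. The range within each sex was more than the distance between the means, and the log2 difference was 0.00 ± 0.81 (SE, edgeR adjusted p = 1), which turned to -0.98 without male replicate 1 and to -0.86 with library totals. CDC6, which loads the MCM ring, and CDC45, which travels with it, showed the same order of libraries, with log2 differences of -0.88 (contig_30970) and -0.68 (contig_34053).

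RBR and the E2F factors, which act upstream of these genes, varied less. The highest RBR unigene, contig_19157, had 14.3, 12.7 and 18.1 in male and 10.5, 12.2 and 8.31 in female flowers. The male libraries all lay above the female ones, though the nearest were 12.7 and 12.2, with a log2 difference of 0.53 ± 0.31 (SE, edgeR adjusted p = 0.512). The other RBR unigenes overlapped between the sexes. contig_20705 had 10.8, 8.58 and 6.89 in male and 10.3, 12.3 and 3.24 in female flowers. contig_33992 had 1.53, 2.77 and 1.95 in male and 1.92, 2.27 and 0.507 in female flowers. Their log2 differences were 0.0 ± 0.48 and 0.34 ± 0.55 (SE, edgeR adjusted p = 0.998 and 0.822). The unigenes of the activators E2FA and E2FB differed by 0.18 and 0.01, and that of E2FC, which in Arabidopsis acts as a repressor, by -0.89. The class median of 0.10 turned to -0.57 with library totals, so that no direction can be given for RBR and E2F.

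The A-type cyclins were all below 0, with log2 differences of -0.88 to -0.02 for 6 tested unigenes and a lowest edgeR adjusted p of 0.673. Without female replicate 3, however, 2 of the 6 were higher in male flowers. Cyclin-A2-3 (contig_15297), the highest of the class, had 10.8, 5.99 and 11.4 in male and 11.4, 8.32 and 8.91 in female flowers and did not separate any libraries. Cyclin-A3-4 (contig_22517) had 4.83, 1.39 and 2.71 in male and 8.27, 7.06 and 0.601 in female flowers, with the order of libraries seen for the MCM unigenes.

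The B-type cyclins fell into a pair and a group. For 7 of the 9 unigenes, namely those of Cyclin-B2-4, Cyclin-B3-1 and the G2/mitotic-specific cyclins of soybean and alfalfa, the log2 difference was -1.35 to -0.74, negative under each scaling, and male replicate 1 was the highest male and female replicate 3 the lowest female library in all 7. One of them, contig_16223, a match to the mitotic cyclin S13-6 that those tables also name, had 13.2, 2.73 and 3.30 in male and 24.5, 15.0 and 3.97 in female flowers. The log2 difference was -1.20 ± 0.78 (SE, edgeR adjusted p = 0.550), and the male library with the most and the female library with the least transcript overlapped. None of the 7 was called without female replicate 3.

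The pair, contig_2394 and contig_2376, both matched Cyclin-B1-2 of rice and were the most abundant cyclins measured. The level of contig_2394 was 125, 111 and 157 in male and 48, 41.3 and 195 in female flowers. Female replicate 3, the lowest female library for the 7 others, was here the highest of all. The log2 difference was 0.47 ± 0.61 (SE, edgeR adjusted p = 0.777), and without female replicate 3 it was 1.69 ± 0.30, which was called (edgeR adjusted p = 0.0406). contig_2376 had 56.3, 48.4 and 46.9 in male and 29.4, 26.0 and 54.8 in female flowers, with a log2 difference of 0.47 ± 0.36 (SE, edgeR adjusted p = 0.609).

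**Figure D4:**
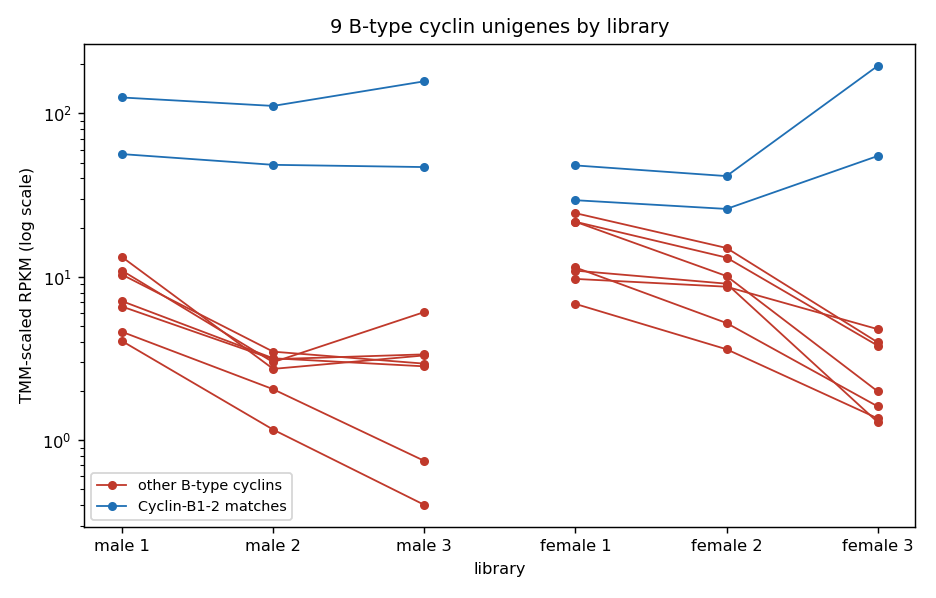
TMM-scaled RPKM (vertical axis, log scale) of the 9 B-type cyclin unigenes in the 3 male and 3 female libraries, with the points of one unigene joined within a sex only to show which belong together. The 2 unigenes that matched Cyclin-B1-2 (blue) lie above the 7 others (red) and are highest in female flowers in replicate 3, at 195 and 54.8, where each of the 7 others is at its lowest female value.

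The CDKs as a class did not lean to either sex, with 10 of 23 tested unigenes higher in male flowers and a median log2 difference of -0.12. The mitotic B-type CDKs followed the B-type cyclins in male flowers: the B2-2 unigene contig_18572 had 17.3, 4.61 and 5.60 in male and 19.7, 12.3 and 7.50 in female flowers. Male replicate 1 again lay with the female libraries, and the log2 difference was -0.53 ± 0.58 (SE, edgeR adjusted p = 0.729). The sexes did not overlap for 3 CDK unigenes higher in male and 2 higher in female flowers, shares near the 10.4% and 9.06% of all tested unigenes. Cyclin-dependent kinase D-1 (contig_9189), a CDK-activating kinase, had 15.8, 12.6 and 12.7 in male and 9.26, 8.12 and 7.46 in female flowers, and its log2 difference was 0.72 ± 0.28 (SE, edgeR adjusted p = 0.336). A match to Cell division control protein 2 homolog A, the A-type CDK that acts through the whole cycle, had 15.1, 23.7 and 20.1 in male and 13.9, 10.7 and 9.24 in female flowers (contig_10663, log2 difference of 0.79 ± 0.33, SE, edgeR adjusted p = 0.361). Both were higher in each male library than in any female one, by less than 2-fold. In the other direction, a unigene of Cyclin-dependent kinase G-2 (First_Contig39) had 12.1, 13.3 and 12.0 in male and 22.1, 25.0 and 14.4 in female flowers, a gap that was small in female replicate 3 (log2 difference of -0.72 ± 0.31, SE, edgeR adjusted p = 0.380). The reverse order of libraries was found in 4 of 23 CDK unigenes, or 17.4%, the same share as over all tested unigenes. Among them, Cyclin-dependent kinase F-1 (contig_2168), known in Arabidopsis as an activator of other CDKs, had 19.1, 32.5 and 59.2 in male and 9.86, 10.4 and 62.4 in female flowers. A second match to Cell division control protein 2 homolog A, contig_759, had 66.2, 50.1 and 64.4 in male and 31.6, 26.2 and 106 in female flowers. Male replicate 1 was not low in contig_759. In both unigenes, female replicate 3 was the highest of all libraries, while female replicates 1 and 2 lay below every male library, and the log2 differences were 0.45 ± 0.77 and 0.15 ± 0.55 (SE). A further match to Cell division control protein 2 homolog A, contig_32311, went the other way. It had 2.45, 1.19 and 1.32 in male and 5.93, 3.49 and 1.08 in female flowers, the order of libraries of the MCM unigenes. Its log2 difference was -1.13 ± 0.61 (SE, edgeR adjusted p = 0.478). The regulatory subunit that docks CDKs on their substrates (contig_10004) had 31.7, 25.8 and 41.0 in male and 30.8, 23.8 and 67.9 in female flowers, again highest in female replicate 3. The most abundant unigene of the class by deposited RPKM, Cyclin-dependent kinase F-4 (contig_6032), stayed between 37.6 and 52.8 in all 6 libraries, with a log2 difference of 0.14 ± 0.33 (SE, edgeR adjusted p = 0.885).

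Of the Aurora kinases, which phosphorylate histone H3 and align chromosomes in mitosis, both unigenes had male replicate 1 as the highest male and female replicate 3 as the lowest female library. Aurora-1 (contig_12328) had 33.0, 13.2 and 13.2 in male and 32.8, 17.9 and 7.62 in female flowers. Its log2 difference of 0.01 ± 0.58 (SE, edgeR adjusted p = 0.995) turned to -0.42 without male replicate 1, to -0.23 without female replicate 3 and to 0.60 without female replicate 1.

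In the spindle checkpoint, which delays anaphase until every chromosome is attached, 9 of 10 unigenes had the higher fitted level in female flowers, where the median log2 difference was -0.69, with a lowest edgeR adjusted p of 0.349. MAD2 (contig_18402), the highest of the class, had 11.0, 2.77 and 3.84 in male and 16.9, 10.4 and 3.54 in female flowers. The libraries again divided as for the MCM genes, with a log2 difference of -0.85 ± 0.68 (SE, edgeR adjusted p = 0.631). The BUB and MAD unigenes with the most negative differences, contig_29635 (-1.29) and contig_25231 (-1.20), had 0.947 and 0 in female replicate 3 against 6.12 to 12.5 in the other female libraries. BUB3.3 (contig_17055), a scarcer relative of the checkpoint protein BUB3, went another way, with 1.13, 1.76 and 1.51 in male and 2.61, 2.55 and 4.25 in female flowers. No female library was as low as a male one, and the log2 difference was -1.06 ± 0.43 (SE, edgeR adjusted p = 0.349).

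The APC/C unigenes were higher in female flowers in 13 of 16 cases by the fitted level, where 15981 of all 29327 tested unigenes were. In 3 of the 16 every female library lay above every male one, beside 9.06% of all tested unigenes. CDC20.1 is an activator that brings substrates to the APC/C. A unigene that matched it, contig_14094, had 4.21, 1.21 and 1.08 in male and 9.10, 7.59 and 4.32 in female flowers. Its log2 difference was -1.72 ± 0.60 (SE, edgeR adjusted p = 0.291). The lowest female and the highest male library were nearly equal, and without male replicate 1 the difference was called, at -2.48 ± 0.44 (edgeR adjusted p = 0.0441). Another match to CDC20.1, contig_26140, had 5.03, 1.31 and 1.51 in male and 9.47, 5.96 and 1.86 in female flowers, with overlap. Its log2 difference was -1.18 ± 0.71 (SE, edgeR adjusted p = 0.519), and without male replicate 1 it was not called (edgeR adjusted p = 0.205). The scaffold subunit APC1 (contig_4281) had 3.42, 3.24 and 2.28 in male and 6.86, 7.90 and 3.96 in female flowers, and one APC5 unigene (contig_4797) had 4.87, 2.86 and 2.45 in male and 6.39, 6.17 and 6.6 in female flowers. These differed by -1.07 ± 0.35 and -0.91 ± 0.36 (SE) on the log2 scale, with edgeR adjusted p-values of 0.265 and 0.342. The other APC5 unigenes, contig_15211 and contig_23457, overlapped between the sexes. They differed by -0.37 ± 0.41 and -0.14 ± 0.45 (SE, edgeR adjusted p = 0.733 and 0.92). Other subunits of the complex, such as APC7 (contig_4561, 4.04 to 6.23) and the CDC27 unigene contig_7498 (4.24 to 5.78), were near constant over the 6 libraries, so that the subunits did not move as one.

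A pair of APC/C unigenes was at its highest in female replicate 3. The RING subunit APC11 (contig_3444), the most abundant of the class, had 34.1, 36.2 and 74.2 in male and 23.7, 28.4 and 203 in female flowers. APC6 (contig_22805) had 15.0, 24.5 and 27.6 in male and 12.2, 11.4 and 112 in female flowers. In both, female replicate 3 was far above the other 5 libraries and decided the sign: the log2 difference of contig_3444 was -0.81 ± 0.83 (SE, edgeR adjusted p = 0.708) with it and 1.04 without it.

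Among the cyclins of other types, the most variable within a sex was contig_3014, a unigene of the U-type (P-type) cyclins. These are related to the yeast cyclins of phosphate signalling. Cyclin-U4-1 (contig_3014) had 1.38, 22.1 and 56.8 in male and 6.55, 7.18 and 89.5 in female flowers, which is the reverse of the order of the MCM genes and the same as that of the SMR3 unigene contig_527. The log2 difference was -0.33 ± 1.30 (SE, edgeR adjusted p = 0.932). A second Cyclin-U4-1 unigene, contig_14021, varied less, with 8.57, 16.4 and 12.6 in male and 6.82, 7.64 and 13.7 in female flowers. Its log2 difference was 0.44 ± 0.41 (SE, edgeR adjusted p = 0.678). Cyclin-U3-1 (contig_6901), the highest of the class, had 22.7, 35.5 and 56.6 in male and 25.4, 23.9 and 40.3 in female flowers, and its log2 difference was 0.36 ± 0.41 (SE, edgeR adjusted p = 0.735). Cyclin-P3-1 (contig_28883) was scarce, with 1.29 to 2.32 in male and 0.507 to 1.09 in female flowers, and differed by 0.91 ± 0.52 (SE, edgeR adjusted p = 0.494).

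The cyclins C, L and T, which act with CDKs of transcription rather than in the division cycle, gave both signs. Cyclin-T1-4 (contig_23999) had 0.740, 1.39 and 1.72 in male and 4.31, 2.35 and 2.33 in female flowers, without overlap, a log2 difference of -1.24 ± 0.53 (SE, edgeR adjusted p = 0.372). A second T1-4 unigene, contig_13359, overlapped between the sexes, at 8.31 to 15.1 in male and 12.2 to 17.4 in female flowers. Cyclin-C1-1 (contig_26412) had 10.3, 14.5 and 12.9 in male and 7.68, 10 and 2.93 in female flowers (log2 difference of 0.81 ± 0.47, SE, edgeR adjusted p = 0.5). Cyclin-L1-1 (contig_21000) was the steadiest of all cyclins, between 8.86 and 9.81 in the 6 libraries, with a log2 difference of 0.00 ± 0.26.

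Some unigenes entered by their wording alone and have other tasks. The FtsZ proteins and the topological specificity factor act in the division of plastids, while FtsY, named alike, serves protein insertion into thylakoids. Of these, 4 of 4 tested unigenes were higher in male flowers by TMM, though 3 of 4 by library totals. FtsZ2-1 (contig_5909) was even within each sex, at 39.8, 39.4 and 40.3 in male and 26.4, 28.7 and 20.7 in female flowers, with a log2 difference of 0.66 ± 0.30 (SE, edgeR adjusted p = 0.400). CDC48, an ATPase that extracts proteins from complexes and membranes, was among the most abundant of the set. Its unigene contig_4805 had 125, 88.2 and 109 in male and 68.7, 53.9 and 64.6 in female flowers, without overlap, and a log2 difference of 0.78 ± 0.38 (SE, edgeR adjusted p = 0.425). A second CDC48 unigene, contig_2302, had 98.2, 88.1 and 109 in male and 57.3, 46.0 and 78.8 in female flowers, also apart, with 0.70 ± 0.39. The scarcer matches to CDC48 homologs B and C gave both signs. The homolog B unigene contig_17002 had 4.79, 5.13 and 4.84 in male and 7.1, 8.62 and 5.17 in female flowers. It was apart in the other direction, with -0.51 ± 0.30 (SE, edgeR adjusted p = 0.509). The homolog C unigenes contig_2933 and contig_1960 differed by -0.29 and 0.32.

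The match to a Cyclin-D-binding Myb-like transcription factor, known from mammals, was female-biased. contig_792 had 1.58, 1.35 and 0.701 in male and 3.58, 10.7 and 3.24 in female flowers, with female replicate 2 the highest and no overlap. The log2 difference was -2.27 ± 0.57 (SE, edgeR adjusted p = 0.138), and the adjusted p ran from 0.0159 with DESeq2, which called it, to 1. A second unigene of that description, contig_791, had 9.31 to 15.4 in male and 11.0 to 14.8 in female flowers and differed by -0.17 ± 0.31. Of the CDCA7-like unigenes, named for a human protein whose gene is regulated by the cycle, contig_21410 had 3.12, 2.03 and 2.03 in male and 10.6, 9.20 and 0.764 in female flowers. It overlapped only through female replicate 3, and without that library it was called at -1.91 ± 0.31 (edgeR adjusted p = 0.0309), against -1.55 ± 0.76 (adjusted p = 0.433) with it. The other tested CDCA7-like unigenes did not share this contrast. contig_29638 had 4.01, 1.75 and 1.65 in male and 5.31, 3.96 and 1.48 in female flowers. contig_21218 had 3.66, 1.6 and 1.06 in male and 3.95, 2.69 and 0.359 in female flowers. Their log2 differences were -0.57 ± 0.56 and -0.23 ± 0.76 (SE, edgeR adjusted p = 0.694 and 0.919), and neither was called without female replicate 3.

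**Figure D5:**
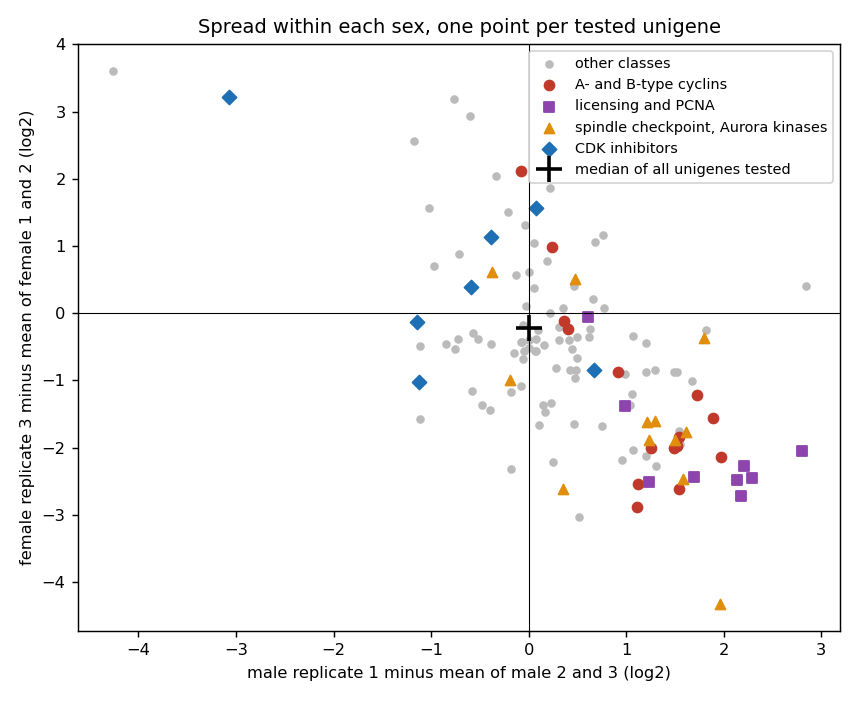
Each point is one tested unigene, placed by the log2(RPKM + 0.5) level of male replicate 1 minus the mean of male replicates 2 and 3 (horizontal axis) and of female replicate 3 minus the mean of female replicates 1 and 2 (vertical axis). Most cyclins of types A and B, the licensing factors and PCNA, and most checkpoint and Aurora unigenes gather at the lower right. Exceptions are both Cyclin-B1-2 unigenes, BUB3.1 and BUB3.3 in the upper part and the BUB1 unigene contig_22402 at the lower left. Of the 7 CDK inhibitors, 3 lie at the upper left and the others elsewhere. The black cross marks the median of all tested unigenes at 0.00 and -0.22.

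The same order of libraries was found in genes of replication and mitosis outside the set. A list of 79 further unigenes for origin recognition, replicative polymerases, nucleotide supply, condensin and other chromosome proteins, and cell plate formation held 75 that were tested, of which 0 were called, beside 1.7% of all tested unigenes, and 1 had an unadjusted p under 0.05, higher in female flowers, beside 7.42% of all. Their median log2 difference was -0.42, with 55 of 75 higher in female flowers, and 73.3% had male replicate 1 highest among the male and female replicate 3 lowest among the female libraries, against 24.9% of all tested unigenes. DNA topoisomerase 2, which untangles chromosomes (contig_15220), had 25.3, 3.74 and 3.58 in male and 39.2, 28.2 and 4.37 in female flowers. KNOLLE, the syntaxin of the forming cell plate (contig_27741), had 13.8, 3.79 and 3.28 in male and 21.3, 10.3 and 2 in female flowers. Both divided the libraries as the MCM and B-type cyclin unigenes did. Summed over this list, the level was 754, 455 and 445 in male and 846, 768 and 394 in female flowers, and the summed level of the licensing factors and PCNA was 110, 30.3 and 31.8 in male and 133, 95.0 and 34.8 in female flowers. The summed levels of the late anther and pollen markers were lowest in male flowers in replicate 1, at 1520, and highest in female flowers in replicate 3, at 326. The markers did not share this order. In female flowers, matches to Pollen-specific protein SF3 had 52.7, 42.2 and 129 (contig_1956) and 15.8, 11.7 and 47.1 (contig_9283), but 29.7, 24.6 and 23.1 in contig_1150. Female replicate 3 was at 0 for contig_36801, contig_37245 and the exopolygalacturonase contig_36496. Other exopolygalacturonase unigenes had 0.508 (contig_31994) and 2.02 (contig_27300) there. The part of these markers in the order of the libraries was not tested.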

How the data were processed

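RNA from stage 7 buds was sequenced for 3 male and 3 female flower samples, and none of the 6 libraries was left out. The authors trimmed the reads, assembled them de novo with CLC Genomics Workbench and CAP3 and deposited, for each unigene, read counts and RPKM. Which program counted the reads, and whether it used strand, was not stated in the text read here. The 7 lines that name no unigene were dropped. The sex of each column was taken from its match to a table of the study, whose male and female means equal those columns.

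Read counts entered edgeR 4.0.16 (filterByExpr, TMM, quasi-likelihood F test, prior count 0.125), with DESeq2 1.42.0 and limma 3.58.1 as alternatives, in R 4.3.3, and Python 3.11.15 for tables and figures. The SE was obtained as the size of the log2 difference over the square root of F. The edgeR test was also run on simulated data. The TMM-scaled totals had a minimum of 3648171 reads (female replicate 3, the least precise library) and a maximum of 73636463 (female replicate 2). For 1 unigene alone, an exact permutation test of 3 against 3 cannot go below p = 0.1, and replicates were called biological by the study. After subtraction of the sex means, male and female samples with equal numbers had correlations of 0.194, 0.125 and 0.371. Male replicate 1 with female replicate 2 gave 0.159, and male replicate 2 with female replicate 1 gave 0.0843. Deviations from a shared mean are not independent of each other, so that these correlations cannot settle whether samples were paired by number. The methods state only that both sexes came from the same plant, and the main fit used no block.

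SwissProt descriptions were read after the first colon of the annotation. Roles, lists and tests were chosen with earlier results of these data known. Named unigenes were, by rule, all those called, per class the one with the highest mean deposited RPKM and those without overlap at an unadjusted p under 0.05, the 5 largest differences in each direction, and contig_22738 and contig_16223, which the study listed. The others were named after their values were seen. Marker lists for floral organ identity (11 of 15 tested unigenes higher in male flowers), carpel and ovule (1 of 4) and meristem (10 of 14) were summed as well. As alternatives, unigenes were not filtered or were kept from a mean RPKM of 5 upwards, and the scaling was by median of ratios or by library totals. Others were the replicate block, DESeq2, limma on log2(RPKM + 1, 0.1 or 5), no fold threshold, reads summed per SwissProt entry, the division cycle proper alone (without plastid division, transcription, CDC48 and CDC5 unigenes), and each library left out.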

Additional observations from a re-analysis of the deposited data

How the results depend on the processing

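The count of 0 called cell division unigenes held without a filter, from a mean RPKM of 5 upwards, with scaling by median of ratios or library totals, with the 3 limma settings, no fold threshold, reads summed per SwissProt entry and the division cycle proper alone. With the replicate block it was also 0, and the block changed the call of no cell division unigene, while 521 of all unigenes were called against 499. DESeq2 called 3, and leaving out 1 library gave 0 to 4. The median log2 difference stayed below 0, between -0.70 (library totals, where the median of all unigenes was -0.41) and -0.09. Over all unigenes, 802 were called without a filter, 287 from a mean RPKM of 5 upwards, 1766 with DESeq2, 253 with limma on log2(RPKM + 5) and 269 to 970 with 1 library left out. The count at an unadjusted p under 0.05 was 9 with library totals, 2 to 5 with limma and 6 to 36 with 1 library left out. Of 32 named unigenes, 27 kept their direction in every fit they entered. The other 5 were near 0 or rested on female replicate 3. Aurora-1 (contig_12328) was at -0.14 from a mean RPKM of 5 upwards, -0.72 with library totals, -0.17 with limma on log2(RPKM + 5) and -0.42 to 0.60 with 1 library left out. PCNA (contig_18479) was at -0.15, -0.86, -0.34 and, with limma on log2(RPKM + 1), -0.16, and at -0.98 to 0.54 with 1 library left out. Cyclin-A2-3 (contig_15297) was at 0.10 without a filter, 0.05 with DESeq2 and -0.13 to 0.30 with 1 library left out, CDKF-4 (contig_6032) at -0.02 from a mean RPKM of 5 upwards and -0.31 with library totals, and APC11 (contig_3444) at -1.26 to 1.04 with 1 library left out, the latter without female replicate 3. The cause of these shifts was not tested. Depth limited the scarce unigenes: contig_41441 had 2 reads in each of male replicate 3 and female replicate 3.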
